A study of Mus musculus with 13 samples.

Results

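Antigen presentation genes were compared between livers of mice made diabetic with streptozotocin (STZ) and livers of control mice. The set has 10 genes. H2-Aa, H2-Ab1, H2-Eb1, Cd74 and Ciita belong to the major histocompatibility complex (MHC) class II pathway, and H2-K1, H2-D1, B2m, Tap1 and Psmb8 to the class I pathway. A gene counted as measured where an array probe set was annotated to it and to no other gene. By this rule 8 of the 10 were measured, 5 of class II and 3 of class I, each by 1 probe set, among 19938 genes in all. H2-K1 and H2-D1 lay only on probe sets that name both genes.

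All 13 mice were male C57BL/6N wild-type animals aged 5 to 6 months and kept under specific-pathogen-free conditions. The 6 STZ mice received 65 mg/kg intraperitoneally on each of 5 days in a row, at an age of 10 to 16 weeks, and the 7 controls received citrate buffer instead. Livers were taken 9 to 11 weeks later, and total liver RNA of each mouse was hybridised to 1 Affymetrix array. STZ is a toxic glucose analogue that destroys pancreatic beta cells. The series' design text instead speaks of controls on standard diet. The title places the comparison within the question of how the liver adapts its mitochondria to insulin resistance and diabetes.

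Class I molecules sit on nearly all nucleated cells and show peptides of proteins made inside the cell to CD8+ T cells. Their peptides are cut by the proteasome, carried into the endoplasmic reticulum by the TAP transporter and loaded onto a heavy chain paired with beta-2 microglobulin. Class II molecules are made mainly by dendritic cells, macrophages and B cells, take peptides from proteins digested in endosomes and show them to CD4+ T cells. In the liver, Kupffer cells and dendritic cells carry most class II, and hepatocytes carry class I.

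The promoters of the 2 classes are shown because class II chain genes are known to share an upstream module of X and Y boxes that is read with the help of Ciita, whereas class I genes also carry kappa B and interferon response elements. The RefSeq table (build GRCm38.p6) held 7 of the 10 members. Each line gives the 150 bases before the start site, 5′ to 3′ on the strand of the gene, with matches to the searched motifs in capitals. The regions are chr17:34287824-34287973 (minus strand) for H2-Aa, chr17:34305717-34305866 (plus) for H2-Eb1, chr17:34000348-34000497 (minus, the first of 2 starts in the table) for H2-K1 and chr2:122147537-122147686 (plus) for B2m.
H2-Aa: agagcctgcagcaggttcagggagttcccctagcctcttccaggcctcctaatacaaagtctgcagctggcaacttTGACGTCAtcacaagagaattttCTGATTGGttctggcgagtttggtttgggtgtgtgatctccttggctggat
H2-Eb1: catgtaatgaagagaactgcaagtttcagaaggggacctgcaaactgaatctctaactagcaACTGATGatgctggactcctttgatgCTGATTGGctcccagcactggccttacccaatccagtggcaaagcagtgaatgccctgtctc
H2-K1: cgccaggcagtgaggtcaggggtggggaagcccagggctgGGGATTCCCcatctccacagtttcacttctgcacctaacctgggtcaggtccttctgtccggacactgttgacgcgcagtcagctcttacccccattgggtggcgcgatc
B2m: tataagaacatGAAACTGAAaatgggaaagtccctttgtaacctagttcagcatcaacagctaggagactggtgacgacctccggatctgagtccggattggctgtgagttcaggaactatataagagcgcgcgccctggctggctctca

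In H2-Aa the capitals mark TGACGTCA (X2 box) from -74 to -67 and CTGATTGG (Y box) from -51 to -44, counted from the start site. In H2-Eb1 they mark an X1 box core, ACNGATG, from -88 to -82 and a Y box from -62 to -55. In H2-K1 the capitals mark a kappa B site, GGGATTCCC, from -110 to -102. In B2m they mark the core of an interferon-stimulated response element, GAAANNGAA, from -139 to -131. Both strands were searched over 250 bases before each of 32851 start sites. The Y box was found in 3.83% of them, the X2 box in 1.55%, the X1 core in 8.31%, the interferon element in 7.13% and the kappa B site in 0.301%. The shorter ATTGG lies inside the Y box and was found in 33.8%, so it was not marked. H2-D1 held a Y box on the opposite strand from -53 to -46, an X1 core from -106 to -100 and a kappa B site from -170 to -162. The start used for H2-K1 is the more upstream of its 2, so its positions do not line up with those of H2-D1. Bases of H2-K1 past that start were not read. Psmb8 held a gamma-activated site, TTCNNNGAA, from -97 to -89, a motif found in 7.02%. Tap1 held a Y box on the opposite strand from -222 to -215. Outside the printed bases, H2-Aa also held an X1 core on the opposite strand from -232 to -226, apart from its X2 and Y boxes. A match describes the letters of the window and is not a measured binding site. Each motif was searched only in the letters given, so other forms of it, such as of the interferon element, were not marked.

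All values are log2 intensities after robust multi-array average (RMA) normalization. A gene was called when its adjusted p in limma was under 0.05, with adjustment over all 19938 genes. Of all genes 9.12% were called, 5.09% higher in STZ and 4.04% lower, and the values of the groups did not overlap for 3.86%. The median difference over all genes was -0.01. None of the 8 measured members was called (0 of 5 in class II and 0 of 3 in class I), and 0 of the 8 had an unadjusted p under 0.05 in limma. An exact permutation test and an exact rank-sum test, each adjusted over all genes, also called 0 of 8. In all 8 genes the groups overlapped. The hepatocyte markers were bright in every array, with a summed level (log2 of the sum of the linear values over 6 genes) from 15.91 to 15.96 in controls and from 15.83 to 15.92 in STZ livers. Of these 6 markers 2 were called lower in limma, Apoa1 (-0.23 ± 0.06, adjusted p = 0.0158), a lipoprotein component, and Ttr (-0.18 ± 0.05, adjusted p = 0.0402), the transthyretin carrier protein. The groups did not overlap for Ttr, which lost its call in 11 of the 13 fits without 1 mouse. Ahsg, named after its values were seen, went the other way without overlap but was not called. It ran from 13.22 to 13.31 in controls and from 13.33 to 13.39 in STZ livers, a difference of 0.10. Correlations between arrays ran from 0.982 to 0.997, and no library was left out.

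In class II, the chain genes varied so much among mice of one group that the difference between the groups was no larger than that spread. H2-Aa, which encodes the alpha chain of the A molecule, had a lowest, median and highest log2 value of 9.26, 9.40 and 9.96 in the 7 controls. In the 6 STZ livers they were 9.07, 9.79 and 10.81. STZ replicates 1, 2 and 4 (10.23, 10.81 and 10.08) lay above every control, STZ replicates 3 and 6 (9.07 in both) below every control, and replicate 5 (9.50) among them. The mean was 9.51 ± 0.29 (SD, n = 7) in controls and 9.79 ± 0.70 (n = 6) in STZ livers, a difference of 0.28 ± 0.24 (SE, 95% interval -0.22 to 0.79) with an adjusted p of 0.579 in limma. Without STZ replicate 2 the difference was 0.08, and without STZ replicate 6 it was 0.43.

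H2-Ab1 encodes the beta chain that pairs with H2-Aa. Its log2 values had a lowest, median and highest of 8.50, 8.59 and 9.37 in controls and of 8.22, 9.06 and 10.01 in STZ livers. The same mice stood out, with STZ replicates 1, 2 and 4 (9.55, 10.01 and 9.40) above all controls and replicates 3 and 6 (8.33 and 8.22) below them. The difference was 0.25 ± 0.26 (95% interval -0.30 to 0.79, adjusted p = 0.670, limma), and it ran from 0.05 without STZ replicate 2 to 0.41 without STZ replicate 6.

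H2-Eb1 encodes the beta chain of the E molecule. C57BL/6 mice are known not to make its alpha chain, H2-Ea, because of a deletion in that gene. H2-Eb1 had a lowest, median and highest log2 value of 8.34, 8.42 and 9.06 in controls and of 8.23, 8.81 and 9.67 in STZ livers. STZ replicates 1, 2 and 4 again lay above all controls (9.15, 9.67 and 9.17), and replicates 3 and 6 below (8.31 and 8.23). The difference was 0.25 ± 0.21 (95% interval -0.20 to 0.69, adjusted p = 0.589, limma) and fell to 0.08 without STZ replicate 2. H2-Ea, named after its values were seen, stayed between 4.31 and 4.55 in all 13 arrays and did not follow H2-Eb1 up in those 3 livers.

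Cd74 encodes the invariant chain, which guides new class II molecules to endosomes and blocks their groove until peptides are loaded. Its lowest, median and highest log2 values were 9.03, 9.17 and 9.98 in controls and 8.80, 9.62 and 10.41 in STZ livers. Here STZ replicate 2 (10.41) was the only STZ liver above all controls and replicate 6 (8.80) the only one below. The difference was 0.23 ± 0.22 (95% interval -0.24 to 0.70, adjusted p = 0.639, limma), and it ran from 0.07 without STZ replicate 2 to 0.39 without STZ replicate 6. Among the controls, replicates 2 and 6 were the highest for all 4 chain genes, with 9.98 and 9.80 for Cd74 against 9.03 to 9.18 in the other five.

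Ciita encodes the transactivator that switches class II genes on. Its probe set was dim, with a mean below the 6.65 of the median gene, and whether this narrows its range was not tested. Its log2 values had a lowest, median and highest of 6.02, 6.03 and 6.12 in controls and of 5.90, 6.00 and 6.29 in STZ livers. STZ replicate 2, the liver with the most class II signal, had the highest Ciita value (6.29), while STZ replicate 4 had the lowest (5.90) and yet was among the 3 livers high in the chain genes. The difference was -0.01 ± 0.06 (95% interval -0.14 to 0.11, adjusted p = 0.939, limma). It turned to 0.01 without STZ replicate 4 or without STZ replicate 5.

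**Figure D1:**
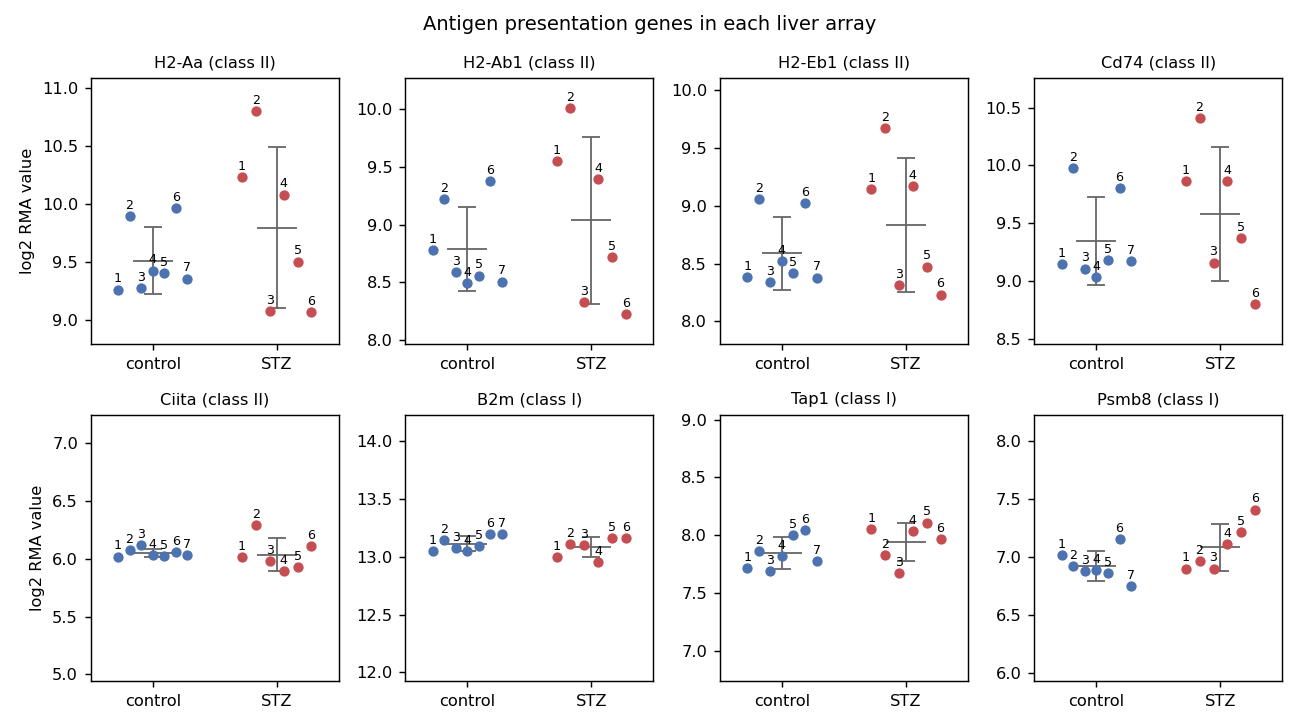
Log2 RMA value (vertical axis) of the 8 measured members in each of 7 control (blue) and 6 STZ (red) livers. Points are mice with their replicate numbers, and lines are the mean and SD. All panels span the same number of log2 units, each around its own gene. STZ replicates 1, 2 and 4 lie above every control for H2-Aa, H2-Ab1 and H2-Eb1, and replicates 3 and 6 lie below.

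The class I genes varied less from mouse to mouse than the class II chain genes. B2m encodes beta-2 microglobulin, the light chain of every class I molecule. Its probe set was bright, where the highest value of any probe set was 14.14, and whether this narrows its range was not tested. Its lowest, median and highest log2 values were 13.05, 13.09 and 13.20 in controls and 12.96, 13.11 and 13.17 in STZ livers, so that STZ replicates 1 and 4 lay just below all controls and none above. The difference was -0.03 ± 0.05 (95% interval -0.14 to 0.08, adjusted p = 0.813, limma), and it ran from -0.05 without STZ replicate 5 to -0.01 without STZ replicate 4.

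Tap1 encodes one subunit of the peptide transporter. Its lowest, median and highest log2 values were 7.69, 7.82 and 8.045 in controls and 7.67 and 8.11 at the extremes in STZ livers, with 7.96 and 8.04 in the middle. STZ replicates 1 and 5 (8.050 and 8.108) were above all controls, and replicate 3 (7.67) below. The difference was 0.10 ± 0.08 (95% interval -0.07 to 0.26, adjusted p = 0.557, limma), and it ran from 0.06 without STZ replicate 5 to 0.15 without STZ replicate 3.

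Psmb8 encodes a catalytic subunit that interferon places into the immunoproteasome. Its lowest, median and highest log2 values were 6.75, 6.89 and 7.16 in controls and 6.90, 7.04 and 7.41 in STZ livers. STZ replicates 5 and 6 (7.22 and 7.41) lay above every control and no STZ liver lay below, a different pair of mice from those high in class II. The difference was 0.16 ± 0.09 (95% interval -0.02 to 0.34, adjusted p = 0.308, limma), the smallest adjusted p of the 8 genes. It ran from 0.10 without STZ replicate 6 to 0.20 without control replicate 6.

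The probe sets shared by the class I heavy chains, H2-K1 and H2-D1, were examined in a fit over all 35556 probe sets, a choice made after the data were seen. They cannot tell the 2 genes apart. The probe set annotated first to H2-D1 had a mean of 11.73 ± 0.06 (SD, n = 7) in controls and 11.91 ± 0.15 (n = 6) in STZ livers, a difference of 0.18 ± 0.06 with an adjusted p of 0.158 in limma. The one annotated first to H2-K1 had 11.85 ± 0.08 and 11.76 ± 0.14, a difference of -0.09 ± 0.06 with an adjusted p of 0.591 in limma. Neither was called, and the point estimates had opposite signs. The 95% interval was 0.04 to 0.32 for the H2-D1 probe set (unadjusted p = 0.0150, limma). For the H2-K1 probe set it was -0.22 to 0.05 (unadjusted p = 0.204, limma). In the H2-D1 probe set every STZ liver except replicate 3 (11.677) lay above all controls (highest 11.846). In the H2-K1 probe set STZ replicates 1, 3 and 4 (11.687, 11.617 and 11.641) lay below all controls and replicate 5 (11.989) above.

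**Figure D2:**
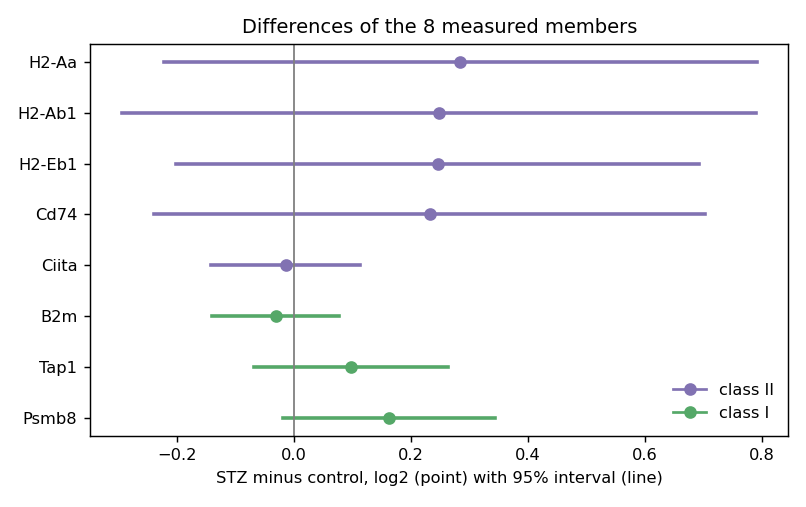
Difference between STZ and control livers of each measured member (point, log2 units, horizontal axis) with its 95% interval from limma (line), class II in purple and class I in green. All 8 intervals include 0, and those of the 4 class II chain genes are the widest, from -0.30 to 0.79 for H2-Ab1.

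The spread within groups separated the class II chain genes from the other members. As a description over all genes, the within-group SD of H2-Aa, H2-Ab1, H2-Eb1 and Cd74 stood at percentiles 99.3, 99.4, 98.9 and 99.1, against 7.36 for B2m, 27.0 for Ciita, 70.2 for Tap1 and 79.7 for Psmb8. The SD of the STZ livers over that of the controls was 2.38 for H2-Aa, 1.99 for H2-Ab1, 1.84 for H2-Eb1 and 1.53 for Cd74, beside a median of 1.17 over all genes. This ratio was looked at after the data were seen and was not tested. Leaving out each mouse in turn, it ran from 1.87 to 2.97 for H2-Aa and from 1.22 to 2.07 for Cd74, lowest without STZ replicate 2 in both. For Ciita the ratio was 4.12, on an SD of 0.04 in controls and 0.15 in STZ livers, and it was 2.36 without STZ replicate 2.

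The 4 class II chain genes were correlated from mouse to mouse. Among the 6 STZ livers their 6 pairs had a Pearson r from 0.978 to 0.996 and a Spearman rho from 0.943 to 1, with exact permutation p-values of r from 0.00139 to 0.00417 and adjusted values up to 0.0333 over the 56 correlations computed (28 pairs in each of 2 groups). By rank none of the 6 pairs passed, with adjusted exact permutation p-values of rho from 0.0778 to 0.156. Without the 2 livers farthest from the median, r was 0.973 to 0.999. Among the 7 controls r was 0.901 to 0.987 and rho 0.321 to 0.857. The exact permutation p of r was 0.00317 to 0.0405, and 1 of 6 pairs passed after adjustment for r and 0 for rho. Without the 2 farthest mice r ran from -0.761 to 0.784, so the relation in controls rests on replicates 2 and 6. The points share their RNA, array and normalization. None of the other 22 pairs passed in either group, and Ciita had an r with the chain genes of 0.217 to 0.305 in controls and 0.362 to 0.445 in STZ livers. B2m and Psmb8 had a positive r with the chain genes in controls (0.508 to 0.615 and 0.506 to 0.772). In STZ livers it was negative (-0.524 to -0.457 and -0.588 to -0.472). Without the 2 farthest mice the controls had both signs, as did Psmb8 in STZ livers.

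**Figure D3:**
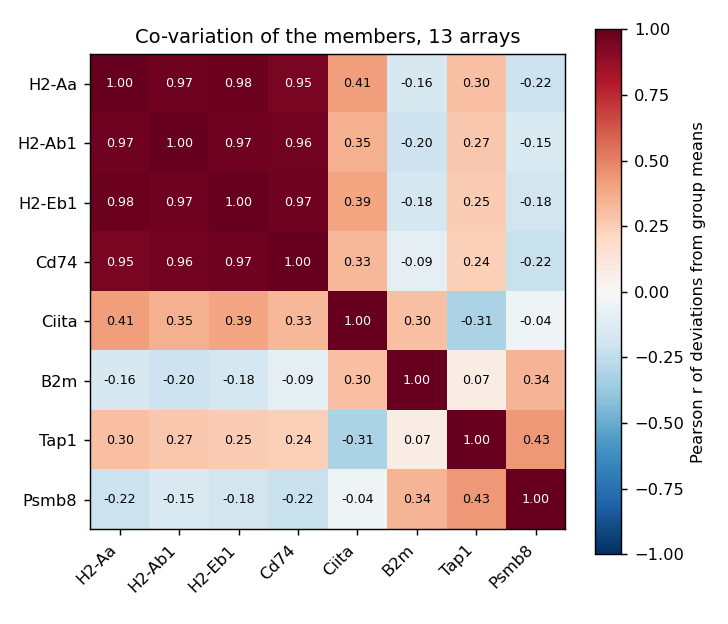
Pearson correlation (colour and number) of each pair of measured members over 13 livers, after subtracting the mean of each group. H2-Aa, H2-Ab1, H2-Eb1 and Cd74 form a block between 0.95 and 0.98, while B2m and Psmb8 have values below 0 with them. Within groups, B2m and Psmb8 had positive values with them in controls and negative values in STZ livers.

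Over all named genes, the 8 whose deviations from the group means were most like those of Cd74 across the 13 livers began with H2-Eb1 (r = 0.969), H2-Ab1 (0.962) and H2-Aa (0.953), followed by Spef1l (0.886), Gcnt2 (0.885), 1700123K08Rik (0.882), Tifab (0.877) and Cxcl9 (0.873). The first 3 are the other class II chain genes. Cxcl9, a chemokine induced by interferon gamma, was high in control replicates 2 and 6 (9.38 and 9.30) and in STZ replicates 1, 2 and 4 (9.22, 9.31 and 9.16), against 8.31 to 8.48 in the other controls. STZ replicates 5 and 6 (8.85 and 8.69) also lay above those controls, although their class II chain genes were not high, and STZ replicate 3 (8.32) did not. For B2m, taken because H2-K1 had no probe set of its own, the 8 most alike were Gm10548 (0.900), Ugt2b5 (0.868), Txnl4a (0.850), Ripply3 (0.841), Rbbp6 (0.836), Cpne8 (0.830), Zhx2 (0.828) and Spaca7 (0.821), and no member was among them.

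Class I was set against class II in each mouse, with every gene taken relative to its control mean and averaged within the class. The class II mean ran from -0.17 to 0.39 in controls. In STZ replicates 1 to 6 it was 0.50, 0.98, -0.29, 0.42, -0.06 and -0.37. The class I mean ran from -0.08 to 0.17 in controls and was 0.02, 0.01, -0.07, 0.08, 0.20 and 0.22 in the STZ livers. STZ replicate 6 was lowest of the STZ livers in class II and highest in class I, and replicate 2 was highest in class II with class I near its control mean. STZ replicates 5 and 6, the highest in class I, carry the label numbers 40 and 42. The median difference of the measured genes was 0.25 in class II and 0.10 in class I. Class II minus class I ran from -0.59 to 0.97 in STZ livers and from -0.16 to 0.37 in controls, so the groups overlapped.

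Markers of cells that carry class II were read beside these values. Of 12 Kupffer cell and macrophage markers 6 were called higher and 0 lower in limma, beside 5.09% and 4.04% of all genes. The median difference of these markers was 0.40. Cd5l, a secreted protein of tissue macrophages, was higher by 0.62 ± 0.15 (adjusted p = 0.0132, limma) and C1qc, a chain of complement C1q, by 0.49 ± 0.13 (adjusted p = 0.0251, limma). The count was 1 without STZ replicate 6, 2 without STZ replicate 1 or 4, 3 without control replicate 1 or 7 and 9 without control replicate 3, and an exact permutation test per gene called 0. C1qc lost its call in 6 of the 13 fits without 1 mouse. The summed level of the list was 12.79 to 13.26 in controls and 12.95 to 13.67 in STZ livers. Its mean relative to controls was 0.58, 0.59, -0.04, 0.51, 0.26 and 0.47 in STZ replicates 1 to 6. Replicates 1, 2 and 4 were thus high in both macrophage markers and class II, while replicate 6 was high in the markers and lowest in class II.

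**Figure D4:**
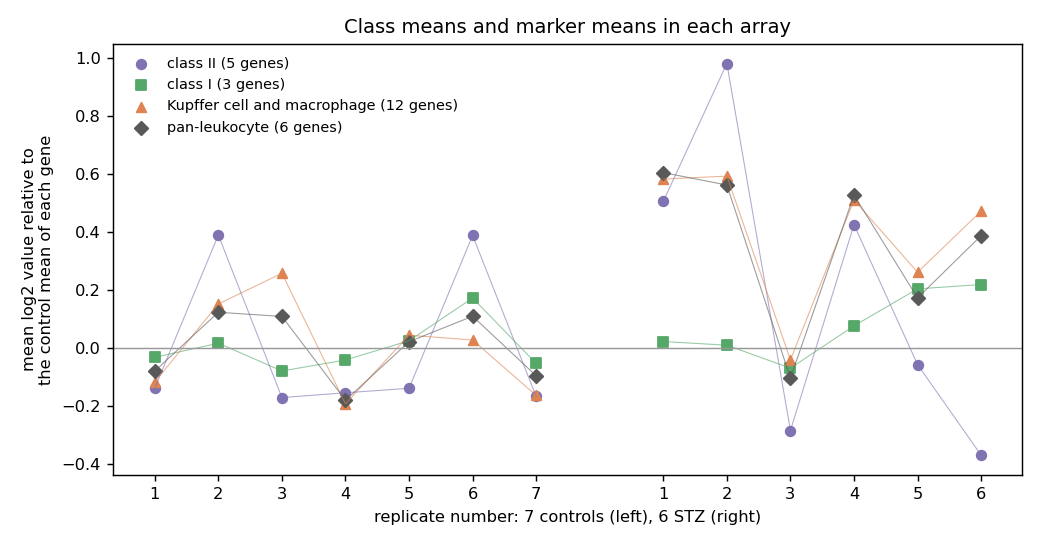
Mean log2 value relative to the control mean of each gene (vertical axis) for class II, class I, Kupffer cell and macrophage and pan-leukocyte genes in the 7 control livers (left) and 6 STZ livers (right). In STZ replicate 6 the macrophage mean is 0.47 and the class II mean -0.37, and lines only join the points of a list.

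Of 6 pan-leukocyte markers 3 were called higher in limma, among them Cd53 (0.57 ± 0.14) and Laptm5 (0.51 ± 0.10), beside 5.09% of all genes called higher. The count was 1 in the exact permutation test, in which Cd53 had an adjusted p of 0.0958, and 0 in the exact rank-sum test. The summed level of these markers was 10.66 to 11.14 in controls and 10.83 to 11.61 in STZ livers. Of 10 dendritic cell markers 0 were called in limma, beside 9.12% of all genes, and 2 had an unadjusted p under 0.05. Their summed level was 9.45 to 9.65 in controls and 9.52 to 9.86 in STZ livers, and 5 of the 10 had a difference above 0. Most of these probe sets were dim, with control means below the 6.65 of the median gene and down to 5.00. Whether this narrows their range was not tested. Cd24a had the smallest p (0.59 ± 0.21, adjusted p = 0.105, limma) and was called without STZ replicate 2 (adjusted p = 0.0392, limma). The other marker with a small p, Batf3, had a difference of the opposite sign (-0.16 ± 0.06, adjusted p = 0.124, limma), with 4 STZ livers below all controls. It was named after its values were seen. Of 6 measured B cell markers 1 was called lower, beside 4.04% of all genes. It was Cd79b of the B cell receptor (-0.40 ± 0.10, adjusted p = 0.0200 in limma and 0.0621 in the exact permutation test). The summed level of the B cell markers was 8.49 to 8.65 in controls and 8.22 to 8.61 in STZ livers. Apart from Cd79b, these probe sets were also dim, with control means below 6.65 and down to 4.59. The part of any of these cells in the class II values was not tested. In whole liver, fewer cells of a type and less RNA per cell cannot be told apart.

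The residual r with Cd74 was 0.353 to 0.719 over the pan-leukocyte markers, -0.22 to 0.71 over the macrophage markers, -0.11 to 0.62 over the dendritic cell markers and -0.07 to 0.36 over the B cell markers. Each of these upper values lay below the 0.953 to 0.969 of the class II chain genes. These are descriptions over 13 livers that share array and normalization.

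The wider class II pathway was followed through the genes that cut and load peptides. Of 24 measured of 28 listed genes, 5 were called higher and 0 lower in limma, beside 5.09% of all genes called higher, and the median difference was 0.09. The 5 are Ctss, Lgmn, Ctsl, Ifi30 and Ctsb. The cathepsins Ctsd (0.15 ± 0.05, adjusted p = 0.0588, limma) and Ctsh (-0.02 ± 0.08, adjusted p = 0.925, limma), named after their values were seen, were not called. Cathepsin S (Ctss), which trims the invariant chain, was higher by 0.59 ± 0.15 (adjusted p = 0.0168, limma), with 8.01 to 8.45 in controls and 8.22 to 9.33 in STZ livers. Lgmn, an asparagine-specific protease, was higher by 0.53 ± 0.10 (adjusted p = 0.00347, limma). Ctsl and Ifi30, a lysosomal cathepsin and a thiol reductase, were each higher by 0.41 (SE 0.09 and 0.12, adjusted p = 0.00838 and 0.0436, limma). Ifi30 lost its call in 9 of the 13 fits without 1 mouse, with an adjusted p up to 0.105. In the exact permutation test Ctss had an adjusted p of 0.0743 and Ifi30 of 0.136.

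The fifth gene, Ctsb, was named because it completes the count. It was higher by 0.18 ± 0.05 (adjusted p = 0.0156, limma), and its groups did not overlap, at 11.62 to 11.70 in controls and 11.78 to 11.97 in STZ livers. With only the 4 STZ mice numbered 29 to 32 its adjusted p was 0.0508 in limma. Ctss was highest in STZ replicates 1, 2 and 4 (9.13, 9.33 and 9.15), and its residual r with Cd74 was 0.669. STZ replicates 5 and 6 (8.57 and 8.76) were also above all controls. Of the controls high in class II, replicate 2 had the highest Ctss value of the controls (8.45), while replicate 6 had 8.22. In STZ replicate 6, lowest in class II, Lgmn stood at 10.46, above all controls (9.60 to 9.95). H2-DMa, a chaperone chain that loads peptides onto class II, had the highest residual r with Cd74 in this list (0.836), and its difference of 0.37 had an adjusted p of 0.142 in limma. H2-DMa was called with only the 4 STZ mice numbered 29 to 32 (0.52, adjusted p = 0.0399, limma). The probe set shared by H2-DMb1 and H2-DMb2 had a difference of 0.04 ± 0.12 (adjusted p = 0.934, limma, over all probe sets).

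In the wider class I pathway 23 of 31 listed genes were measured, 1 was called higher and 2 lower in limma, and the median difference was 0.03. This count of 3 of 23 stands beside 9.12% of all genes called in either direction. The residual r with Cd74 ran from -0.75 (H2-Q10) to 0.82 (Psmb10) in this list, with a median of -0.01. Tapbp (tapasin), which holds class I at the transporter, was higher by 0.28 ± 0.07 (adjusted p = 0.0196, limma), with 9.54 to 9.95 in controls and 9.81 to 10.12 in STZ livers. Without STZ replicate 1 its adjusted p was 0.0519 in limma, and in the exact permutation test it was 0.0621. The probe sets shared by Rps3a1 and Tapbp, which cannot tell these genes apart, had differences of -0.10 and -0.09. Their adjusted p was 0.630 and 0.648 (limma, over all probe sets). Mr1, a class I-like molecule that shows vitamin B metabolites to MAIT cells, was lower by 0.56 (-0.56 ± 0.10, adjusted p = 0.00175, limma), at 8.12 to 8.65 in controls and 7.51 to 8.13 in STZ livers. Pdia3, a disulfide isomerase of the loading complex, was lower (-0.22 ± 0.07, adjusted p = 0.0451, limma) and lost its call in 11 of the 13 fits without 1 mouse. Without STZ replicate 1 the count of called genes was 1.

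The 14 subunits of the constitutive 20S proteasome, which immunoproteasome subunits such as Psmb8 partly replace, gave 0 calls in limma, beside 9.12% of all genes. They also gave 0 unadjusted p-values under 0.05 in limma. Their median difference was -0.04, and Psma3 had the smallest p (-0.10 ± 0.05). Of 19 measured interferon gamma signalling and target genes, 3 were called higher and 1 lower in limma, beside 5.09% and 4.04% of all genes, with a median difference of 0.18. The guanylate-binding proteins Gbp3 and Gbp7 were higher by 0.83 ± 0.14 and 0.64 ± 0.12 (adjusted p = 0.00104 and 0.00209, limma), and the immunity-related GTPase Irgm1 by 0.47 ± 0.11 (adjusted p = 0.0108, limma). Irf2, a transcription factor that opposes Irf1 at interferon elements, was lower (-0.35 ± 0.07, adjusted p = 0.00452, limma). Without STZ replicate 3 the count of called genes in this list was 7.

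**Figure D5:**
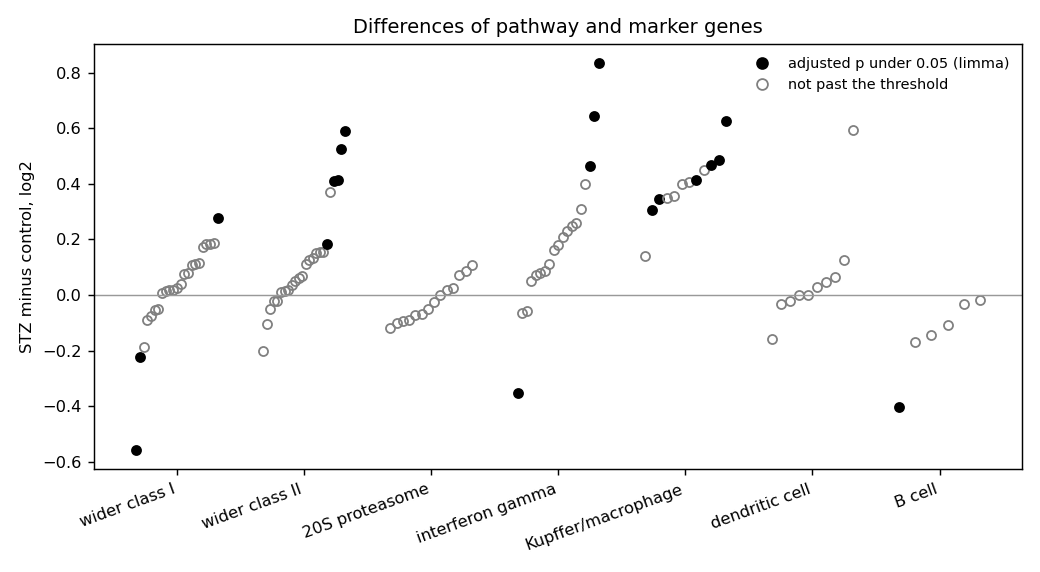
Difference between STZ and control livers (log2, vertical axis) of every measured gene in 4 pathway lists and 3 marker lists, ordered by size within a list. Filled points had an adjusted p under 0.05 in limma; in the wider class II list these are 5 genes from 0.18 (Ctsb) to 0.59 (Ctss).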

How the data were processed

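The authors deposited log2 intensities for 35556 probe sets. The submitters' processing notes name RMA and version 1.2 of Affymetrix Expression Console. RMA brings all arrays to a common distribution, so a change in total RNA per cell is not seen. The genome build is not given in the sources used here. Probe sets with 1 symbol (21789) named genes, those with several (1621) or none (12146) did not, and the brightest probe set stood for a gene. Groups came from the labels, which call the mice biological replicates. The label numbers are 1 to 7 for controls and 29 to 32, 40 and 42 for STZ, so a batch that follows them cannot be told apart from the treatment. The number of arrays limits the precision.

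STZ and control were compared with limma 3.58.1 in R 4.3.3 (lmFit, eBayes, 2-sided, Benjamini-Hochberg over 19938 genes, threshold 0.05, no filter), tested on simulated data first. Differences are STZ minus control. Exact permutation tests used all 1716 splits of the mice per gene and all orders for correlations, 2-sided. The members and lists were chosen with earlier results of these data known. Named were all members and the 8 genes most like Cd74 and B2m. In each pathway list up to 4 called genes with the largest differences (in a marker list up to 2) were named, or the gene with the smallest p. Not all of these are printed. Ahsg, Ctsb, Ctsd, Ctsh, Batf3, H2-Ea, H2-DMa, H2-Q10 and Psmb10 were added after their values were seen. Alternatives were another variance model, the 2 exact tests, a filter on dim genes, other probe set rules, centring, array weights, the replicate block, 4 STZ mice only, and leaving out each mouse.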

Additional observations from a re-analysis of the deposited data

How the results depend on the processing

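No class I or class II member was called under any alternative, leave-one-out fits included (0 to 0 in both classes). The count over all genes, 1819, was 1088 with the exact rank-sum test and 1399 to 2168 without 1 mouse. The wider class I count of 3 was 1 with the exact permutation test and 1 with the exact rank-sum test, and 1 to 3 without 1 mouse. The wider class II count of 5 was 2 with the exact rank-sum test and 3 with the replicate block, and 4 to 5 without 1 mouse. The interferon gamma count of 4 was 2 with the exact rank-sum test and 8 with several symbols kept, and 4 to 7 without 1 mouse. The Ciita difference ran from -0.0650 without STZ replicate 2 to 0.0144 without STZ replicate 4, and its sign also turned without STZ replicate 5 (0.00717). With only the 4 STZ mice numbered 29 to 32, the differences were 0.54 for H2-Aa, 0.53 for H2-Ab1, 0.49 for H2-Eb1 and 0.48 for Cd74 (adjusted p from 0.186 to 0.242, limma). In the same fit the class I differences were 0.05 for Psmb8, 0.05 for Tap1 and -0.07 for B2m (adjusted p = 0.805, 0.824 and 0.548, limma). The 6 Kupffer cell and macrophage calls were 0 with the exact permutation test, the exact rank-sum test and the replicate block. The cause of these shifts was not tested. The deviations of same-numbered mice had correlations from -0.09 to 0.19. Differently numbered mice were not compared, so whether the numbers mark a pair was not tested. With the replicate block H2-Aa differed by 0.26 (adjusted p = 0.581, limma) and 1256 genes were called. With the replicate block the pan-leukocyte count of 3 was 1, the hepatocyte count of 2 was 0, and Ctsb (adjusted p = 0.0758, limma), Cd53 (0.0780) and Cd79b (0.0617) lost their calls.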

Other observations

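Interferon-inducible GTPases that the array measures only through probe sets shared by close paralogs were read in the fit over all 35556 probe sets, chosen after the data were seen. The probe set of Irgm2 and Igtp was higher by 0.89 ± 0.14 in STZ livers (adjusted p = 0.00210, limma), from 8.79 to 9.45 in controls and from 9.50 to 10.39 in STZ livers, so the groups did not overlap. The probe set of Gbp2 and Gbp2b differed by 0.94 ± 0.27 (adjusted p = 0.0618, limma), and was highest in STZ replicates 1, 2 and 4 (7.33, 8.02 and 7.71), the mice high in class II chain genes. Both probe sets of Tgtp1 and Tgtp2 were highest in the same 3 mice, with differences of 0.78 and 0.87 (adjusted p = 0.140 and 0.0989, limma). The probe set shared by Gbp4, Gbp6, Gbp8, Gbp9, Gbp10 and Gbp11 was instead highest in STZ replicates 5 and 6 (9.43 and 9.32), against 8.47, 8.15 and 7.93 in replicates 1, 2 and 4, with a difference of 0.41 ± 0.25 (adjusted p = 0.479, limma).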
